A study of Homo sapiens with 9 samples.

Results

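The 6 RNA-seq libraries described here come from SNU-398, a mesenchymal-like hepatocellular carcinoma (HCC) cell line that stably overexpressed either EMX1-FL (3 libraries) or EMX1-X1 (3 libraries), and they were taken from a series of 9 libraries by their overexpression labels. The other 3 libraries are the vector control, which the labels call wild type and which is used here as a baseline. They also enter the fit, so they add to its estimate of the spread, and the grouping of libraries described below. All 9 libraries were grown in the same medium with serum and went through the same puromycin selection after lentiviral infection. The study calls its replicates biological in a figure legend that covers the check of EMX1 by RNA-seq, while the labels do not say whether the libraries came from separate cultures, and no source used here says whether a line is 1 clone or a pool of cells. The p-values measure the spread between these libraries. The comparison asks which genes part the cells carrying EMX1-FL from the cells carrying EMX1-X1.

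EMX1 is a homeobox gene known for its role in the developing cerebral cortex. Its protein is a transcription factor that binds DNA through a homeodomain, and homeodomains of this kind recognise a short core rich in A and T. EMX1-FL is the full-length form with an entire homeodomain, of which its last exon codes a part together with a nuclear localization signal. EMX1-X1 is a splice form whose alternative terminal exon replaces that part of the protein. The counts are per gene, so the transcripts of both forms and the endogenous EMX1 transcript are added together.

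The EMX1 gene (chromosome 2, 72916260 to 72936071, GRCh38) was strongly expressed in both lines. It was at 251, 135 and 145 CPM (counts per 1000000 counted read pairs) in EMX1-FL libraries 1 to 3, at 145, 294 and 288 CPM in EMX1-X1 libraries 1 to 3, and at 9.34 to 12.9 CPM in the vector control. The ranges of the isoform groups overlapped, and both lay far above the vector control. The log2 fold change of EMX1-FL over EMX1-X1 was -0.45 (95% interval -1.10 to 0.20, adjusted p = 0.618 in edgeR's quasi-likelihood test, p = 0.3 in a two-sided exact permutation test). The interval reaches from a doubling in EMX1-X1 to a small excess in EMX1-FL, so the total EMX1 level was not shown to be equal between the lines, and it was -0.05 within cluster A and -0.21 within cluster B of the libraries described next.

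The libraries did not group by isoform alone. The first principal component, with 39.6% of the variance, parted a cluster A (EMX1-FL 2 and 3, EMX1-X1 1, vector control 1 and 2) from a cluster B (EMX1-FL 1, EMX1-X1 2 and 3, vector control 3). These clusters are a grouping found in the data and no condition of the study, and cluster A holds 2 of the 3 EMX1-FL libraries but 1 of the 3 EMX1-X1 libraries. The slope of log2 CPM on the GC content of genes, per 10 points of GC, was 0.30 to 0.34 in the cluster B libraries of both isoforms, -0.33 and -0.32 in EMX1-FL 2 and 3, and -0.14 in EMX1-X1 1. The cluster and the isoform therefore overlap in part, and values with the cluster as a covariate and within each cluster are given beside the results. Total counts were 21562703 to 23788467 in EMX1-FL and 23775424 to 24733541 in EMX1-X1. All 6 mesenchymal markers checked were detected at 1 CPM or more, with summed levels of 1636 to 1942 CPM in EMX1-FL and 1546 to 1617 CPM in EMX1-X1. Of 5 epithelial markers, CDH1 and EPCAM also reached 1 CPM, with means of 3.03 and 4.4 CPM, while KRT8, KRT18 and KRT19 did not. Of 9 hepatocyte markers only ALB reached 1 CPM, and AFP, APOB and TTR had 0 counts in the isoform libraries. None of the leukocyte, endothelial and erythroid markers reached a mean of 1 CPM. CD68 and KRT18, both with 0 counts, share 85.6% and 17.1% of their exon bases with other genes. Read pairs on such bases are left uncounted, so these 0 counts do not show that CD68 or KRT18 is silent.

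**Figure D1:**
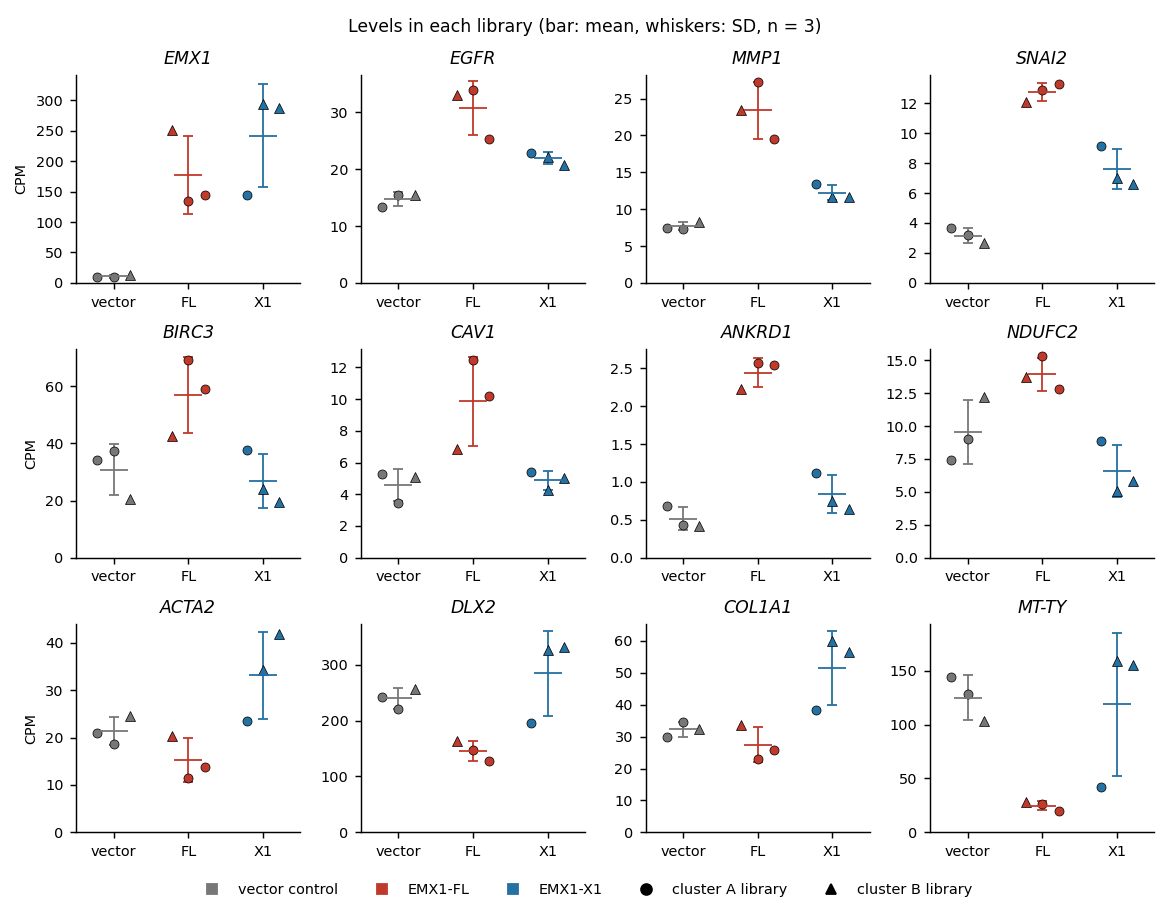
CPM of 12 genes in each of the 9 libraries (points; circles are cluster A and triangles cluster B), with the mean and SD of each group of 3. EMX1 overlaps between the isoforms, EGFR, MMP1, SNAI2, BIRC3, CAV1, ANKRD1 and NDUFC2 are higher in every EMX1-FL library, and ACTA2, DLX2, COL1A1 and MT-TY are higher in every EMX1-X1 library.

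Of 18574 genes tested, 263 (1.42%) met the study's threshold for DEGs, an unadjusted p under 0.05 with at least a doubling or halving. EMX1-FL cells had the higher level of 139 (0.748%) and EMX1-X1 cells of 124 (0.668%). None passed at an adjusted p under 0.05 with edgeR's quasi-likelihood test and Benjamini-Hochberg adjustment (smallest adjusted p = 0.611), while 1418 genes (7.63%) had an unadjusted p under 0.05, 553 (2.98%) higher in EMX1-FL and 865 (4.66%) higher in EMX1-X1. On the same genes DESeq2 passed 1 gene and limma 0 after adjustment. All genes named below are therefore differences at an unadjusted threshold. The libraries of the groups did not overlap for 1556 genes (8.38%), 722 with EMX1-FL above (3.89%) and 834 with EMX1-FL below (4.49%).
Many of the DEGs were weakly expressed. A mean under 1 CPM was found for 135 of them (51.3%), against 17.2% of all genes tested, and 83 carry only a clone identifier as a name. Protein-coding genes made up 58 of the DEGs higher in EMX1-FL and 64 of those higher in EMX1-X1, and genes annotated as antisense 23 and 11. The counting command in the file header sets no strand, so reads of an antisense gene and of its partner cannot be told apart. At a mean of at least 1 CPM, 24 DEGs were higher in all EMX1-FL libraries and 27 in all EMX1-X1 libraries.

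The precision of these libraries bears on the genes that did not differ. The median standard error of a log2 fold change was 0.27. For 10487 genes (56.5%) the 95% interval lay within -1 and 1, so a doubling or halving between the isoforms was outside it, and for 1804 genes (9.71%) it lay within -0.5 and 0.5. With the cluster as a covariate the median standard error was 0.18, and the interval of 13206 genes (71.1%) lay within -1 and 1. The clusters were found in these same values, which favours a smaller spread in that fit. Its intervals may be too narrow and its p-values too small, here and wherever it is used below. That fit gave 186 DEGs (1.00% of genes tested), 111 higher in EMX1-FL and 75 higher in EMX1-X1, of which 155 were among the 263, and 2389 genes (12.9%) with an unadjusted p under 0.05, again with none past adjustment (smallest adjusted p = 0.165).

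The genes parting the isoforms differed in base composition. DEGs higher in EMX1-FL had a median GC content of 43.7% over the longest transcript and DEGs higher in EMX1-X1 one of 58%, beside 48.1% for all genes tested. Among the 6718 genes under 45% GC the median log2 fold change was 0.27, with 70 DEGs higher in EMX1-FL and 6 higher in EMX1-X1. Among the 4979 genes at 55% GC or more it was -0.31, with 13 and 71. With the cluster as a covariate these medians were 0.11 and -0.17. A GC offset, which removes each library's own trend on GC, gave 217 DEGs, 140 higher in EMX1-FL and 77 higher in EMX1-X1, of which 163 were among the 263. The part of the GC trend in the differences of single genes was not tested beyond this offset, and values under it are given beside many of the genes and gene groups below.

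Among the genes higher in EMX1-FL cells, ANKRD1 (chromosome 10, 90912096 to 90921276), which encodes a cardiac ankyrin repeat protein and is a classical YAP target, had together with TRIM5 the smallest p among DEGs with a mean of at least 1 CPM and no overlap. ANKRD1 was at 2.22, 2.57 and 2.54 CPM in EMX1-FL and at 1.12, 0.748 and 0.646 CPM in EMX1-X1, with 0.412 to 0.685 CPM in the vector control. Every EMX1-FL library lay far above the highest EMX1-X1 library, and the EMX1-X1 libraries lay within the vector range or somewhat above it. The log2 fold change was 1.54 (95% interval 0.75 to 2.32, unadjusted p = 0.00115 in edgeR's test), and it was 1.13 within cluster A and 1.56 within cluster B. ANKRD1 stayed a DEG whichever of the 6 libraries was left out. CAV1, the main coat protein of caveolae, was at 6.88, 12.5 and 10.2 CPM in EMX1-FL and at 5.41, 4.24 and 5.01 CPM in EMX1-X1. The difference was 1.01 on the log2 scale (95% interval 0.43 to 1.59), and the EMX1-X1 libraries lay at the level of the vector control (3.45 to 5.27 CPM).

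BIRC3 (chromosome 11, 102317450 to 102339403), an inhibitor of apoptosis and a ubiquitin ligase of NF-kappaB signaling, was at 42.7, 69.1 and 59.2 CPM in EMX1-FL and at 37.6, 23.9 and 19.4 CPM in EMX1-X1. The lowest EMX1-FL library was the one of cluster B and the highest EMX1-X1 library the one of cluster A, so the groups came closest across clusters. BIRC3 had a log2 fold change of 1.08 (95% interval 0.43 to 1.73). With the cluster as a covariate it was 0.86 (95% interval 0.59 to 1.14), and its unadjusted p of 1.04e-05 was the smallest of the genes named here in that edgeR fit. CCL2, the monocyte chemoattractant, had few reads, with 25, 35 and 16 counts in EMX1-FL and 7, 4 and 3 counts in EMX1-X1. Its groups did not overlap, and its fitted log2 fold change was 2.49 (95% interval 1.17 to 3.82).
TRIM5, a restriction factor against retroviruses, was at 3.68, 5.22 and 4.99 CPM in EMX1-FL and at 2.41, 1.66 and 2.42 CPM in EMX1-X1, with 3.13 to 3.40 CPM in the vector control between them. TRIM5 differed by 1.09 on the log2 scale (95% interval 0.53 to 1.65), with 1.05 within cluster A and 0.85 within cluster B. NDUFC2, a subunit of respiratory complex I, had a log2 fold change of 1.08. The purinergic receptor P2RY1 had one of 1.32, the synaptic scaffold DLG2 one of 1.31 and the integrin subunit ITGB3 one of 1.37. The last 3 were at low levels, with at most 3.46 CPM in any of these libraries. Of the remaining genes named by smallest p, RAD54B shares 73.8% of its exon bases with FSBP and C6orf201 shares 37.9% with its neighbours. Read pairs on shared bases are left uncounted by the counter's default. Among other genes named in this report, ITGB3 shares 35.9%, EFNB2 36.4%, CCNE2 37.1% and HMGCS1 37.7% of its exon bases. FAM221A had a log2 fold change of 1.04.

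Among the genes higher in EMX1-X1 cells the smallest p belonged to MT-TY, the mitochondrial tRNA for tyrosine. It was at 28.5, 26.2 and 19.8 CPM in EMX1-FL, at 42.4, 159 and 155 CPM in EMX1-X1, and at 144, 128 and 103 CPM in the vector control. All EMX1-FL libraries and EMX1-X1 1 were below every vector library, while EMX1-X1 2 and 3 were above them, so the isoform groups did not overlap but the EMX1-X1 group was split. The log2 fold change was -2.26 (95% interval -3.13 to -1.38, unadjusted p = 0.00012 in edgeR's test), and it was -0.89 within cluster A. Within cluster B it was -2.46.

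ACTA2 (chromosome 10, 88935074 to 88991339), smooth muscle actin and a marker of contractile mesenchymal cells, was at 20.4, 11.5 and 13.7 CPM in EMX1-FL and at 23.4, 34.2 and 41.8 CPM in EMX1-X1, with 18.6 to 24.5 CPM in the vector control. The EMX1-FL libraries lay within the vector range or below it, and EMX1-X1 2 and 3 above it. The log2 fold change was -1.13 (95% interval -1.71 to -0.55), with -0.90 within cluster A and -0.89 within cluster B. ACTA2 shares 30.8% of its exon bases with other genes, FAS among them. TUBB8, a beta-tubulin, was at 2.04, 1.73 and 2.49 CPM in EMX1-FL and at 4.41, 3.78 and 4.48 CPM in EMX1-X1, with 2.70 to 3.01 CPM in the vector control. Its log2 fold change was -1.02, with -1.06 within cluster A and -0.98 within cluster B.
The remaining genes of this group came mostly from GC-rich transcripts. KLF2, a Kruppel-like factor of endothelial quiescence, TBXA2R, the thromboxane receptor, HCN2, a pacemaker channel, UBALD2, ZNF580 and ZNF628 have 61.7% to 70.8% GC. Their log2 fold changes ran from -1.17 (ZNF580) to -1.03 (KLF2, TBXA2R and HCN2), and with the GC offset from -0.78 (ZNF580) to -0.33 (HCN2). The difference of HCN2 was -0.19 within cluster A and -1.21 within cluster B, and with the GC offset HCN2 missed an unadjusted p under 0.05. ATP4A, a subunit of the gastric proton pump, had a log2 fold change of -1.09, and the pseudogene ISCA1P4 one of -1.29.

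**Figure D2:**
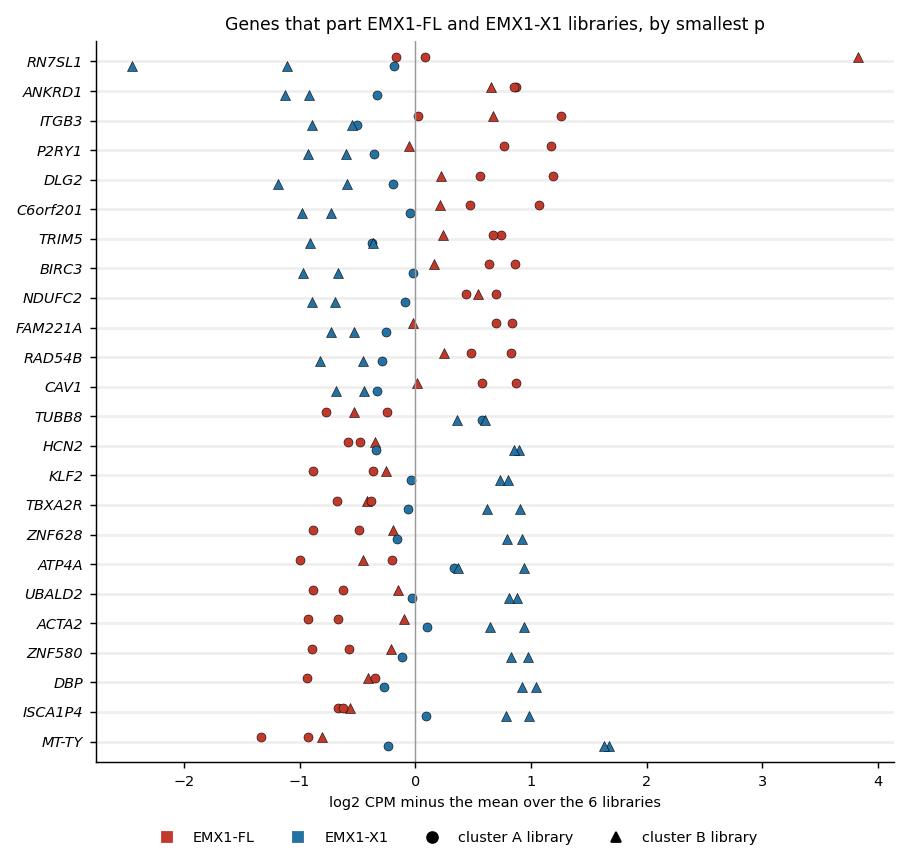
log2 CPM of the 24 genes with the smallest p, 12 in each direction, in the 6 isoform libraries, each centred on its mean (circles cluster A, triangles cluster B). No gene has overlapping groups. The EMX1-FL library of cluster B and the EMX1-X1 library of cluster A are often the closest pair, and RN7SL1 stands out through 1 EMX1-FL library.

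Of these 24 genes, all had the same direction in both clusters, all had an unadjusted p under 0.05 with the cluster as a covariate and 11 were also DEGs there. They were chosen for not overlapping, so their direction in these libraries is a description. Over all DEGs, 93 of the 139 higher in EMX1-FL and 83 of the 124 higher in EMX1-X1 differed by at least 0.5 on the log2 scale in the same direction within each cluster. The direction was the same within both clusters for 122 of the 139 and for 122 of the 124. It was the opposite within cluster A for 14 and 2 of them, and within cluster B for 3 and 0. The DEGs were called from these same libraries, so these counts are a description as well. Of all 18574 genes tested, 9455 had the same sign within both clusters, and their share at 0.5 or more was not counted.

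Some calls higher in EMX1-FL came from a single library. RN7SL1, the RNA of the signal recognition particle, was at 16.1 CPM in EMX1-FL 1 and between 0.208 and 1.20 CPM in the other 5 isoform libraries. The fitted log2 fold change was 3.39, and it was 0.13 within cluster A. Of 82 cytosolic ribosomal protein genes tested, 5 were DEGs and 12 had an unadjusted p under 0.05, all higher in EMX1-FL, beside 2.98% of all genes with that p and direction. RPS23 was at 275, 53.5 and 75.8 CPM in EMX1-FL and at 74.2, 25.4 and 27.5 CPM in EMX1-X1. RPL23A was at 241, 50.4 and 49.5 CPM and at 51.3, 24.9 and 32.1 CPM. EMX1-FL 1 was the highest library by far for both, and the other EMX1-FL libraries lay close to EMX1-X1 1, which is of their cluster, or below it. RPL30, RPL38 and RPS29 showed the same pattern, as did the glycolytic enzyme ALDOA and the mitochondrial ribosomal protein gene MRPL2. ALDOA shares 54.7% and MRPL2 35.0% of its exon bases with other genes, so part of their read pairs is left uncounted. RPS23 and RPL23A had log2 fold changes of 1.67 and 1.66, with 3.37 and 3.09 within cluster B and -0.22 and -0.04 within cluster A. Over the 82 genes the median was 0.12 in the fit on groups, -0.13 within cluster A and 0.44 within cluster B. RPS3A differed from this pattern. It was at 605, 788 and 712 CPM in EMX1-FL and at 524, 369 and 400 CPM in EMX1-X1, and its difference was 0.52 within cluster A and 0.65 within cluster B. Genes of ribosomal proteins have many processed copies in the genome, which can share their reads.
Among nuclear oxidative phosphorylation subunits, 5 of 71 had an unadjusted p under 0.05, all higher in EMX1-FL, beside 2.98% of all genes, and the median log2 fold change was 0.04. COX7C and ATP5F1E, small subunits of complex IV and of ATP synthase, had log2 fold changes of 0.76 and 0.71, with 0.06 and -0.02 within cluster A. NDUFC2 was the one DEG of the list, at 0.65 within cluster A and 1.32 within cluster B. The summed level of the 15 mitochondrially encoded transcripts was 37520, 66566 and 56450 CPM in EMX1-FL and 58613, 42422 and 45183 CPM in EMX1-X1, lower in the cluster B libraries of both isoforms.

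Genes past the adjusted threshold against the vector control are given next with both isoforms. These comparisons share the isoform libraries with the present one, so their values are set side by side and are not independent. At an adjusted p under 0.05 with at least a doubling, 13 genes (0.0700% of those tested) passed for EMX1-FL against the vector control and 1 gene (0.00538%), EMX1 itself, for EMX1-X1. EMX1 was among the 13 as well, and the other 12 entered only through EMX1-FL, so a higher level in EMX1-FL than in EMX1-X1 was favoured by this choice and is a description. MMP1 (chromosome 11, 102789919 to 102798160), the interstitial collagenase, was at 23.5, 27.2 and 19.5 CPM in EMX1-FL, 13.4, 11.6 and 11.7 CPM in EMX1-X1 and 7.29 to 8.32 CPM in the vector control. The 3 groups did not overlap. EMX1-FL exceeded EMX1-X1 by 0.94 on the log2 scale (95% interval 0.53 to 1.35, unadjusted p = 0.000333 in edgeR's test), just short of a doubling, while the differences from the vector control were 1.61 for EMX1-FL and 0.67 for EMX1-X1. SNAI2, the transcription factor Slug that drives epithelial-mesenchymal transition, was at 12.1, 12.9 and 13.3 CPM in EMX1-FL, 9.11, 7.02 and 6.62 CPM in EMX1-X1 and 2.64 to 3.64 CPM in the vector control. Its log2 fold change between the isoforms was 0.75 (95% interval 0.30 to 1.21), beside 2.02 and 1.27 against the vector control.
The tryptophan-degrading enzyme TDO2 differed by 0.79 between the isoforms (95% interval 0.28 to 1.30), beside 1.81 and 1.02 against the vector control. The BMP antagonist GREM1 differed by 0.65 (0.19 to 1.12), beside 1.63 and 0.97. The serine protease PRSS23 differed by 0.48 (0.09 to 0.87), beside 1.33 and 0.84. For all 3 every EMX1-FL library was above every EMX1-X1 library. The collagen chain COL12A1 differed by 0.37 (0.01 to 0.73) and the surface sialoglycoprotein CD24 by 0.47 (0.03 to 0.90), with a lower bound near 0 in both.
For the remaining 5 of these genes the isoforms were not told apart. The receptor-type phosphatase PTPRK differed by 0.25 (95% interval -0.15 to 0.65), the TGF-beta receptor TGFBR2 by 0.30 (-0.27 to 0.86), the potassium channel KCNA1 by 0.21 (-0.22 to 0.64), the nucleotide sugar transporter SLC35D3 by 0.14 (-0.23 to 0.52) and the phospholipase PLAAT1 by 0.13 (-0.40 to 0.66). Their differences from the vector control were 1.15 to 1.75 for EMX1-FL and 1.01 to 1.61 for EMX1-X1. The intervals leave out a doubling between the isoforms for these 5 genes but not a smaller difference.

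EGFR (chromosome 7, 55019017 to 55211628) is the receptor tyrosine kinase that the study follows downstream of EMX1-FL. It was at 33.0, 34.0 and 25.3 CPM in EMX1-FL, 22.8, 22.2 and 20.8 CPM in EMX1-X1 and 13.4 to 15.5 CPM in the vector control. The lowest EMX1-FL library was above the highest EMX1-X1 library, and the gap between those was small beside the spread within EMX1-FL. The log2 fold change was 0.49 (95% interval 0.10 to 0.88, unadjusted p = 0.0186 and adjusted p = 0.611 in edgeR's test), under the fold threshold for DEGs. A two-sided exact permutation test gave p = 0.1, the smallest it can give with 3 libraries against 3. With the cluster as a covariate the value was 0.51 (95% interval 0.20 to 0.82), with 0.36 within cluster A and 0.62 within cluster B. Against the vector control the log2 fold changes of EGFR were 1.06 for EMX1-FL and 0.57 for EMX1-X1, neither past adjustment. The study reports a rise of EGFR mRNA with EMX1-FL but not with EMX1-X1. Among the 8 ERBB receptors and ligands tested, EGFR was the only one at an unadjusted p under 0.05 with a higher level in EMX1-FL, and the neuregulin gene NRG2 was lower, with a log2 fold change of -0.74. Of all genes, 2.98% were higher and 4.66% lower at that p.
Of 25 ERK feedback and output genes 0 were higher and 3 were lower in EMX1-FL at an unadjusted p under 0.05, beside 2.98% and 4.66% of all genes. A positive log2 fold change was found for 6, beside 9657 of all 18574 genes, and the median of the list was -0.19 (-0.09 with the GC offset). The immediate early transcription factor EGR1 was at 184, 179 and 209 CPM in EMX1-FL and at 214, 333 and 314 CPM in EMX1-X1. EGR1 had a log2 fold change of -0.59, with -0.15 within cluster A and -0.82 within cluster B, and with the GC offset it was -0.35 and missed that p. EGR3, of the same family, and DUSP4, a phosphatase of ERK, had log2 fold changes of -0.84 and -0.60. Counts of mRNA do not measure phosphorylation.

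Promoter sequence was compared for the 11530 genes tested that have an entry in the RefSeq table (GRCh38.p14, 250 bases before to 50 after the start). A single entry was used for each gene, so other starts of a gene were not looked at. The homeodomain core TAATTA, which reads the same on both strands, was in 241 of them (2.09%). It was in 4 of 53 DEGs higher in EMX1-FL (7.55%) and in 3 of 62 higher in EMX1-X1 (4.84%). These small counts were not tested, and the first set had the more AT-rich promoters, with a median GC of 59.3% against 67.2% in the second and 65.3% over all. The holders were DLG2, RANBP3L, CHRM5 and TOMM7, higher in EMX1-FL, and H2BC13, GPR132 and LINC01563, higher in EMX1-X1. The window of DLG2 lies within the gene (chromosome 11, 83455012 to 85627922) and away from its outer ends. A TEAD element, GGAATG on either strand, was searched after ANKRD1 had been seen among the first genes. It was in 1241 of all promoters (10.8%), in 15 of 53 (28.3%) and in 9 of 62 (14.5%). ANKRD1, the gene that prompted the search, is itself among the 15. These counts were not tested either, and the difference in promoter GC between the sets applies to them as well. The CArG box of serum response factor was in 115 promoters (0.997%), in 0 of 53 and in 2 of 62. The promoters of 4 genes are shown because the results above turn on them or because they hold these letters. Capitals mark the homeodomain core or the TEAD element, the coordinates are those of GRCh38.p14, and each sequence is read 5′ to 3′ on the gene's strand.
ANKRD1 (higher in EMX1-FL, minus strand, chr10:90921038-90921337, 2 TEAD elements): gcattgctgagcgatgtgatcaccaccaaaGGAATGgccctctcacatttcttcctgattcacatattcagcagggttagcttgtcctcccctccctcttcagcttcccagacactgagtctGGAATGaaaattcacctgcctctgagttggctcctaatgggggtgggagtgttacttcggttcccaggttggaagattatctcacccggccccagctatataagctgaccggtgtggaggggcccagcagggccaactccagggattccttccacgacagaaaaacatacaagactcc
DLG2 (higher in EMX1-FL, minus strand, chr11:84273231-84273530, a TEAD element and a homeodomain core): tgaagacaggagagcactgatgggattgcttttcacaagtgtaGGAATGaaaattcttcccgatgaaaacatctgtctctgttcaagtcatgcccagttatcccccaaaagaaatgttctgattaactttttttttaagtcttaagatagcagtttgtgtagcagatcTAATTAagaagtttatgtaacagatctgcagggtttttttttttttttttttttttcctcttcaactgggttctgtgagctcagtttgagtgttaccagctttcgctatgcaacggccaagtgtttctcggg
H2BC13 (higher in EMX1-X1, minus strand, chr6:27807880-27808179, a homeodomain core): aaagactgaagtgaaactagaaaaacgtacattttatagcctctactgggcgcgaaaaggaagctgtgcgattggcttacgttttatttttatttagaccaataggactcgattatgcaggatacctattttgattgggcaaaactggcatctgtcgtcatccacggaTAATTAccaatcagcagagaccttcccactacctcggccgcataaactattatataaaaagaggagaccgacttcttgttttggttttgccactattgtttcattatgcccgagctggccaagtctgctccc
EGFR (plus strand, chr7:55018767-55019066, neither element): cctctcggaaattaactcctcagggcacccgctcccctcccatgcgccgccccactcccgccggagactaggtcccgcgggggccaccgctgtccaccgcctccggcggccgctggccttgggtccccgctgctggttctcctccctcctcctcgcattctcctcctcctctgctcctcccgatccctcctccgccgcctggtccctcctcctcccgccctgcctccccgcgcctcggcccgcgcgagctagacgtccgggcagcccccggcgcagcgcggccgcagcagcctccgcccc
The EGFR window is the most GC-rich of the 4, with 75.3% GC, and holds neither string of letters. The window is short and leaves out intronic and distal regions, so nothing follows from it about binding. The EGFR promoter site that the study mutated lies upstream of the window and was not looked at.

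Homeobox genes at an unadjusted p under 0.05 were all lower in EMX1-FL. Of 33 HOX cluster genes tested, 8 were lower and 0 higher at an unadjusted p under 0.05 (beside 4.66% of all genes lower), 29 had a negative log2 fold change, and the median was -0.28. Of 48 other homeobox genes, 9 were lower and 0 higher, 41 were negative and the median was -0.33. Over all 18574 genes tested, 9657 had a positive log2 fold change and the median was 0.02. The medians of the HOX and other homeobox lists were -0.16 and -0.15 with the GC offset. They were -0.25 and -0.24 with the cluster as a covariate, so each was smaller but kept its sign. Within cluster A the medians were -0.26 and -0.07, and within cluster B -0.15 and -0.34. DLX2 (chromosome 2, 172099438 to 172102900), a forebrain and jaw patterning factor, was at 163, 147 and 127 CPM in EMX1-FL, 196, 326 and 331 CPM in EMX1-X1 and 220 to 257 CPM in the vector control. EMX1-FL was below the vector range in every library, and EMX1-X1 was below it in library 1 and above it in libraries 2 and 3. DLX2 had a log2 fold change of -0.97 (95% interval -1.42 to -0.51), with -0.52 within cluster A and -1.01 within cluster B. With the GC offset it was -0.61.
MSX2, a target of BMP signaling with 47.6% GC, had a log2 fold change of -0.50, and of -0.52 with the GC offset. HOXC6, HOXC9 and HOXC13, of the HOXC cluster, had log2 fold changes of -0.75, -0.93 and -0.65, with -0.37, -0.57 and -0.33 within cluster A. Of these HOXC9 overlapped between the groups. IRX4 was the only homeobox DEG, at no more than 2.78 CPM in any library. Its groups overlapped, and it missed an unadjusted p under 0.05 with the cluster as a covariate (-0.77) and with the GC offset (-0.47).

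Several developmental signaling genes were higher in EMX1-X1 as well. BMP4, a secreted BMP ligand, was at 7.45, 5.39 and 2.96 CPM in EMX1-FL and at 8.36, 13.7 and 12 CPM in EMX1-X1, with a log2 fold change of -1.11 (95% interval -1.78 to -0.44) and -1.05 and -0.78 within clusters A and B. Together with GREM1, its antagonist, it was one of 2 of the 17 BMP pathway genes at an unadjusted p under 0.05, and these moved in opposite directions. Of 29 semaphorins, plexins and neuropilins, guidance cues and their receptors, 6 were lower in EMX1-FL and 0 were higher, beside 4.66% and 2.98% of all genes. The same shares are to be set beside the BMP count above and the WNT, Notch and ephrin counts that follow. SEMA4A and SEMA6B were DEGs. SEMA4A had a log2 fold change of -1.26, with -1.16 within cluster A and -0.88 within cluster B. SEMA6B was at 131, 60.3 and 89.4 CPM in EMX1-FL and at 104, 261 and 258 CPM in EMX1-X1, and its groups overlapped. The median of the list was -0.18, and it was 0.03 with the GC offset. Of 27 WNT pathway genes 4 were lower in EMX1-FL and 0 higher, among them the DEGs WNT4 and FZD8, both split between EMX1-X1 1 and EMX1-X1 2 and 3. FZD8 missed an unadjusted p under 0.05 with the cluster as a covariate and with the GC offset. Of 17 Notch pathway genes 4 were lower in EMX1-FL and 0 higher, and 1 had a positive log2 fold change, beside 9657 of all 18574 genes. This list has the highest GC content of those described, a median of 62.7%, and its median of -0.35 was -0.12 with the GC offset, -0.05 within cluster A and -0.36 within cluster B. NOTCH3 was at 118, 77.6 and 105 CPM in EMX1-FL and at 92.5, 190 and 179 CPM in EMX1-X1. These groups overlapped, and with the GC offset its log2 fold change of -0.62 was -0.17 and missed that p. The ephrins and Eph receptors had the lowest median together with the histones, -0.37, with 2 of 19 lower and EFNB2 higher in EMX1-FL. It was -0.17 with the cluster as a covariate and -0.10 with the GC offset, and the list has a median GC content of 59%.
GLIS1, a zinc finger factor of the GLI family, was at 2.22, 0.758 and 1.85 CPM in EMX1-FL and at 2.54, 6.94 and 4.36 CPM in EMX1-X1. Its log2 fold change was -1.52, with -1.04 within cluster A and -1.28 within cluster B.

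Replication-dependent histone genes, whose transcripts lack a poly(A) tail, were lower in EMX1-FL where they passed the test. Of 29 tested, 7 were lower and 0 higher at an unadjusted p under 0.05, beside 4.66% and 2.98% of all genes. A negative log2 fold change was found for 26 of the 29, while 9657 of all 18574 genes had a positive one. The median of the list was -0.37, with -0.24 within cluster A and -0.58 within cluster B. The DEGs were H4C14, H3C2, H2AC8 and H2BC13, with at most 2.46 CPM in any isoform library. The groups overlapped for H2AC8 and H2BC13, and H2AC8 missed that p with the cluster as a covariate (-0.82). The linker histone H1-2 was at 22.8, 17.7 and 26.7 CPM in EMX1-FL and at 26.0, 42.7 and 48.1 CPM in EMX1-X1. Its groups overlapped narrowly. No histone gene could be matched to a GC value by its name, so the check on GC content is void for this list. These genes are near copies of each other and can share reads.
Of 30 cell cycle genes the median log2 fold change was 0.09, with 1 higher and 3 lower in EMX1-FL at an unadjusted p under 0.05, beside 2.98% and 4.66% of all genes. The mitotic kinase PLK1 and the mitotic transcription factor FOXM1 were lower, with log2 fold changes of -0.60 and -0.49 and no overlap between the groups, and the S phase cyclin CCNE2 was higher, with 0.59. With the GC offset PLK1 was at -0.34 and FOXM1 at -0.30, while CCNE2 was at 0.26 and missed that p.

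Genes of the circadian clock were looked at after DBP had appeared among the genes with the smallest p. DBP, a transcription factor that is a direct output of the clock, was at 28.4, 19.7 and 29.6 CPM in EMX1-FL, 31.2, 71.6 and 77.7 CPM in EMX1-X1 and 25.7 to 41.5 CPM in the vector control. PER1, a negative regulator of the clock, was at 47.7, 28.3 and 46.9 CPM in EMX1-FL and at 52.0, 100 and 103 CPM in EMX1-X1. For both, EMX1-X1 2 and 3 stood apart from the other libraries and EMX1-X1 1 lay just above the EMX1-FL range. DBP had a log2 fold change of -1.22, PER1 one of -1.05, the repressor NR1D1 one of -0.86 and the cryptochrome CRY2 one of -0.52, at unadjusted p from 0.002 to 0.0155 in edgeR's test. Within cluster A these were -0.37, -0.51, -0.47 and -0.24. The other 12 of 16 clock genes were between -0.43 and 0.46 and did not reach that p. All 4 that did are GC-rich, with 57.0% to 62.7% GC, beside 48.1% for all genes. With the GC offset DBP was at -0.89 and PER1 at -0.63, while NR1D1 at -0.49 and CRY2 at -0.25 missed an unadjusted p under 0.05. Of all genes, 4.66% were lower in EMX1-FL at that p, and the 16 were listed with DBP already seen. The hour of harvest is not given in the sources used here.

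Matrix and adhesion genes showed single differences rather than a shared direction. At an unadjusted p under 0.05, 2.98% of all genes were higher in EMX1-FL and 4.66% were lower. These are the shares to set beside the list counts that follow. Of 28 collagen chains 14 had a positive log2 fold change, beside 9657 of all 18574 genes, and the median of the list was -0.01. COL1A1 (chromosome 17, 50183289 to 50201632), the main chain of fibrillar collagen I, was at 33.5, 23.1 and 25.8 CPM in EMX1-FL, 38.2, 60 and 56.4 CPM in EMX1-X1 and 30 to 34.7 CPM in the vector control. EMX1-X1 was above the vector control in every library and EMX1-FL was within its range or below it. Its log2 fold change was -0.91 (95% interval -1.38 to -0.43, unadjusted p = 0.00131 in edgeR's test), with -0.64 within cluster A and -0.79 within cluster B. With the GC offset it was -0.56. Among 15 metalloproteinases and TIMPs, MMP1 was the only one at an unadjusted p under 0.05, and the median was -0.15. Among 17 integrin subunits, ITGB3 and ITGA2 were higher in EMX1-FL at that p and none was lower. ITGA2, which pairs with the beta 1 chain as a collagen receptor, was at 5.06, 6.40 and 7.99 CPM in EMX1-FL, 4.20, 3.37 and 3.96 CPM in EMX1-X1 and 1.36 to 2.65 CPM in the vector control, again with 3 groups that did not overlap. Of 10 mesenchymal markers ACTA2 alone reached an unadjusted p under 0.05. Of 11 EMT transcription factors SNAI2 was higher and TWIST2 lower in EMX1-FL. TWIST2 overlapped between the groups and missed that p with the GC offset, and none of the 8 epithelial markers tested differed at that p.
Among YAP and TEAD target genes, ANKRD1 was higher in EMX1-FL while the receptor tyrosine kinase AXL and the forkhead factor FOXF2 were lower, with log2 fold changes of -0.58 and -0.80, and the median over 17 genes was -0.05. The chemokine list held CCL2 and no other of 7 genes at that p. CYP1B1, an enzyme of the aryl hydrocarbon response, was at 20.4, 33.9 and 26.1 CPM in EMX1-FL and at 18.0, 11.5 and 11.8 CPM in EMX1-X1. Its log2 fold change of 0.96 fell short of a doubling and was 0.72 within cluster A and 0.81 within cluster B. The cystine transporter SLC7A11 and the cholesterol synthesis enzyme HMGCS1 were higher in EMX1-FL by 0.67 and 0.62 on the log2 scale, and with the GC offset by 0.35 and 0.36. None of the 14 receptor-type tyrosine phosphatases tested differed at that p, with a median of 0.03.
Among lists not described so far, 3 of 14 genes of the IGF system, 2 of 64 cadherins and protocadherins, 2 of 19 p53 targets and CDK inhibitors, 2 of 12 hepatocyte transcription factors and 2 of 17 TGF-beta pathway genes were lower in EMX1-FL at that p and 0 were higher, beside 4.66% and 2.98% of all genes. The share of cadherins and protocadherins was thus below that of all genes. Their medians were -0.29, -0.10, -0.23, -0.25 and -0.04, and with the GC offset -0.20, -0.06, -0.06, -0.09 and -0.13.

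**Figure D3:**
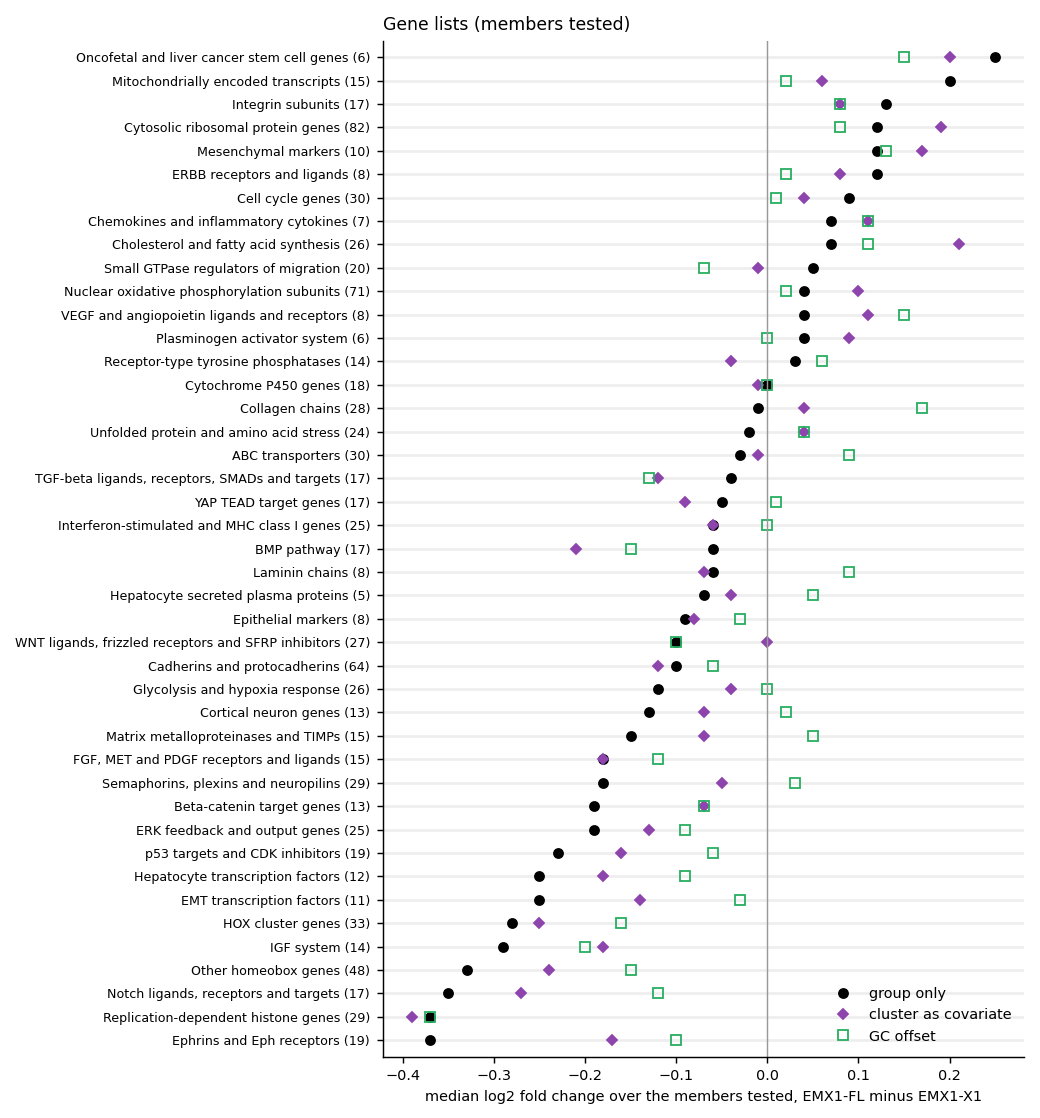
Median log2 fold change of EMX1-FL over EMX1-X1 over the tested members of each gene list (number in brackets) with at least 3 tested, for the fit on groups, with the cluster as a covariate and with a GC offset. The ephrin and histone lists lie lowest at -0.37, followed by the Notch list and the other homeobox genes, most lists move towards 0 with the offset, and the histones have no GC values.

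The number of DEGs rested on single libraries. Without EMX1-FL 1, the EMX1-FL library of cluster B, 1125 genes were DEGs, 275 higher in EMX1-FL and 850 higher in EMX1-X1, and 531 passed the adjusted threshold in edgeR's test. The groups compared were then 2 libraries of cluster A against 1 of A and 2 of B. Without EMX1-X1 1, the EMX1-X1 library of cluster A, 722 were DEGs and 1 passed. Of the 263 DEGs, 192 remained without EMX1-FL 1 and 208 without EMX1-X1 1. Leaving out EMX1-X1 2 or 3 gave 153 and 126 DEGs. Of the 24 genes with the smallest p, 20 kept an unadjusted p under 0.05 whichever isoform library was left out, and ANKRD1, MT-TY and ISCA1P4 stayed DEGs each time. RN7SL1 lost that p without EMX1-FL 1, ITGB3 and P2RY1 without EMX1-FL 2, and C6orf201 without EMX1-FL 3 or EMX1-X1 3.

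**Figure D4:**
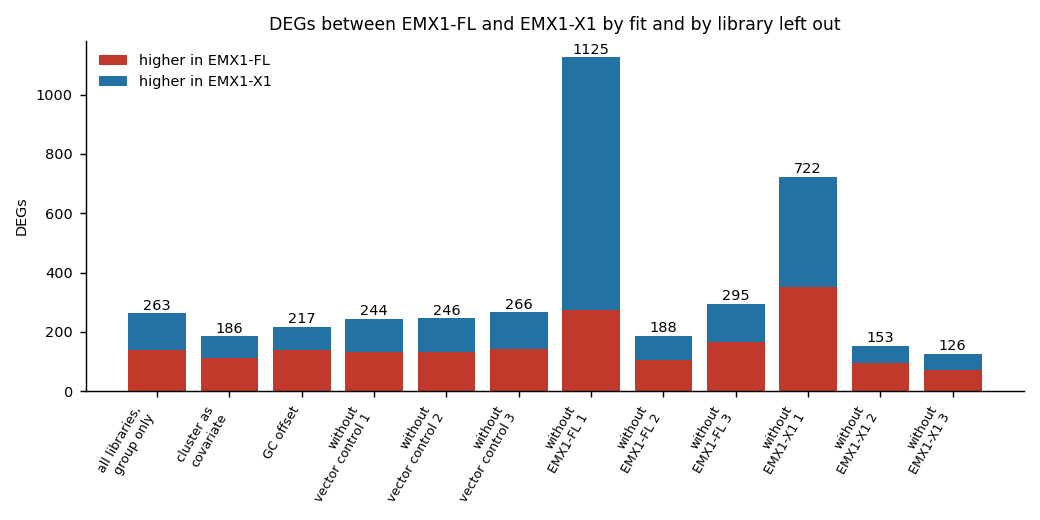
Number of DEGs between EMX1-FL and EMX1-X1 with all libraries, with the cluster as a covariate, with a GC offset, and with each of the 9 libraries left out in turn, stacked by direction. The bars without EMX1-FL 1 (1125) and without EMX1-X1 1 (722) stand far above the 263 of all libraries.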

How the data were processed

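Per the labels and methods, reads were demultiplexed with bcl2fastq 2.1.7, trimmed with fastp and aligned with STAR to GRCh38. The files deposited by the authors hold raw, whole-number counts for each gene name (featureCounts 2.0.1 and Ensembl 99 in the file header, version 2.0.6 in the submitters' processing notes, RSEM in the methods) and log2(TPM + 1) values made from them. Pairs overlapping more than 1 gene are left out by the counter's default. Counts were tested with edgeR 4.0.16 in R 4.3.3 (filterByExpr, TMM, quasi-likelihood, all 9 libraries in the fit, 6 residual degrees of freedom). The methods give the threshold for DEGs and name no test. The deposited log2 TPM served limma 3.58.1, and DESeq2 1.42.0 was another alternative. Clusters came from the first principal component, and GC content from the longest GENCODE 29 transcript. In bulk RNA, fewer cells of a type and less RNA per cell cannot be told apart. The scripts were tested on simulated data.

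Genes were named as EMX1 and EGFR, the 12 smallest p per direction among DEGs (no overlap, a mean of at least 1 CPM, a gene symbol), list members that were DEGs or the first 3 of a list at p under 0.05, genes past adjustment against the vector control, and DEGs kept with the cluster covariate. The comparison, the 45 lists and the rules were chosen with earlier results of these data known. The 16 clock genes, the TEAD element, the CArG box and the promoter holders were chosen after values were seen. A result on 1 member of the homeobox list is not reported here.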

Additional observations from a re-analysis of the deposited data

How the results depend on the processing

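The count of DEGs depended on the filter, the scale and single libraries. It was 107 (54 higher in EMX1-FL and 53 higher in EMX1-X1) with limma on log2(TPM + 1), 686 (408 and 278) without the filter on low counts, 121 (56 and 65) with at least 10 counts in every library, and 1418 (553 and 865) by p alone. DEGs higher in EMX1-X1 numbered 75 with the cluster as a covariate, 77 with the GC offset, 63 with both, and 66 with the GC offset and the replicate block. Leaving out 1 library at a time gave 126 to 1125 DEGs, 72 to 353 higher in EMX1-FL and 54 to 850 higher in EMX1-X1, with 0 to 531 past adjustment. The lowest counts came without EMX1-X1 3 and the highest total without EMX1-FL 1. Past adjustment, DESeq2 gave 1 gene, and 59 genes passed in edgeR without the filter. The cause of these changes was not tested. Across the alternatives run, which include no fit within a cluster, no gene named changed its direction, leaving aside RANBP3L, CHRM5, TOMM7, GPR132 and LINC01563, which were not followed across them. The log2 fold change of EGFR ran from 0.40 to 0.61. Residuals of EMX1-FL and EMX1-X1 libraries with the same number correlated at -0.522, -0.286 and -0.248. Each such pair lies across the clusters, so these values cannot show whether the numbers pair libraries. With the replicate block there were 208 DEGs (111 and 97), 0 past adjustment, EMX1 at -0.43 and EGFR at 0.48. Depth and 3 libraries a group bounded the difference within a doubling or halving for 56.5% of genes.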
